A study of Mus musculus with 6 samples.

Results

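The BCL2 family apoptosis regulators were examined as 10 genes. These were the survival members Bcl2, Bcl2l1 and Mcl1, the effectors Bax, Bak1 and Bok, and the BH3-only members Bcl2l11, Bid, Bad and Bik. They were taken by name, as the rows of the count table whose gene symbol was a member. The members and the further gene lists below were chosen with earlier results of these data known. All 10 were found among the 24063 rows, and all 10 passed the filter on low counts, which 13572 rows passed.

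BCL2 family proteins meet at the outer membrane of mitochondria, where they set whether cytochrome c is released and caspases are activated. Effectors form the pores, survival proteins hold effectors back, and BH3-only proteins either activate effectors or occupy survival proteins. Hepatocytes are known to depend on BCL-XL, encoded by Bcl2l1, and on MCL1, since deletion of either gene in hepatocytes causes spontaneous apoptosis in mouse liver.

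RNA-seq was performed on liver tumors of 3 WT (NR2E3+/+) and 3 Nr2e3-/- male C57BL/6 mice. Nr2e3 encodes an orphan nuclear receptor, and the study asked what its loss does to liver tumors. Both genotypes had received the liver carcinogen diethylnitrosamine (DEN, 25 mg per kg, intraperitoneally) at 15 days of age, and tumors were taken at the 24-week time point. Each tumor gave 1 library. No untreated liver and no normal tissue beside the tumor was analysed here, so every value describes DEN tumors. The mutation carried by the knockout mice, and whether the groups were littermates, are not given in the sources used here. Values are read counts per gene, normalized by TMM and given as CPM, the count scaled to a library of 1000000 reads.

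Total counts were 25250090 to 28690279 per WT library and 15376261 to 28336305 per Nr2e3-/- library. Nr2e3 itself had 0 counts in all 6 libraries, which allows up to 0.105 to 0.195 CPM (3 counts, counting error only), so its counts could not check the genotypes. Nr2e3-/- replicate 1, the shallowest library, stood apart from its group. Its Spearman correlation over genes was 0.979 to 0.984 with WT libraries and 0.958 to 0.976 with the other Nr2e3-/- libraries, which correlated at 0.984 with each other. The members' calls are therefore given with and without it. Because it was singled out in these same data by its likeness to WT, p-values without it can be too small and are no independent support. Hepatocyte markers summed to 121100 to 169600 CPM in every library. Neutrophil markers (4 of 5 listed genes in the table, none at 0 in all libraries) summed to 3.33 to 5.48 CPM in WT and, in the Nr2e3-/- tumors in replicate order, to 3.05, 25.4 and 15.1 CPM. Macrophage markers reached 396 CPM in Nr2e3-/- replicate 2 against 186 to 249 CPM elsewhere. The 5 stellate and fibroblast markers summed to 221 to 241 CPM in WT and to 250.1, 147 and 146 CPM in Nr2e3-/- tumors. The 5 red cell markers summed to 121 to 166 CPM in WT and to 195 to 264 CPM in Nr2e3-/- tumors. The part of these markers in the results was not tested. In bulk tissue, fewer cells of a type and less RNA per cell cannot be told apart.

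Among the members, Bcl2l1 was higher in all 3 Nr2e3-/- tumors, at 129 ± 52.5 CPM against 54.4 ± 13.0 CPM in WT (SD, n = 3 each). Mcl1 was also higher, at 241 ± 56.2 against 173 ± 5.23 CPM, and for both genes Nr2e3-/- replicates 2 and 3 were the highest libraries. Bcl2, the least abundant survival member, was lower in all 3 Nr2e3-/- tumors, while Bax was at 14.96 to 19.6 CPM over all libraries, with the genotypes overlapping. By edgeR's quasi-likelihood test (two-sided), 2 of 10 members had an unadjusted p under 0.05, Bcl2l1 and Mcl1, against 21.5% of all genes tested. Both were higher, a direction in which 11.8% of genes passed. After Benjamini-Hochberg adjustment over all genes, 0 of 10 members passed 0.05 in edgeR, as did 0.0958% of genes. DESeq2 called 1 member (Bcl2l1), with 8% of genes called, and limma-voom called 2 (Bcl2l1 and Mcl1), with 17.4% of genes called. The limma-voom fit used sample quality weights, which can give less weight to a library unlike its group. The weights were not examined, so its calls may not be independent of how replicate 1 stood apart. Without Nr2e3-/- replicate 1, edgeR called the same pair of members, with 21.8% of genes called. The median log2 fold change was 0.48 over the 3 survival members, 0.08 over the 7 effectors and BH3-only members and 0.01 over all genes tested. The value of 0.48 is that of Mcl1, between Bcl2l1 (1.25) and Bcl2 (-0.64). Bcl2l2, a survival gene outside the 10 members, was at -0.37, so this median depends on which survival genes are listed.

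**Figure D1:**
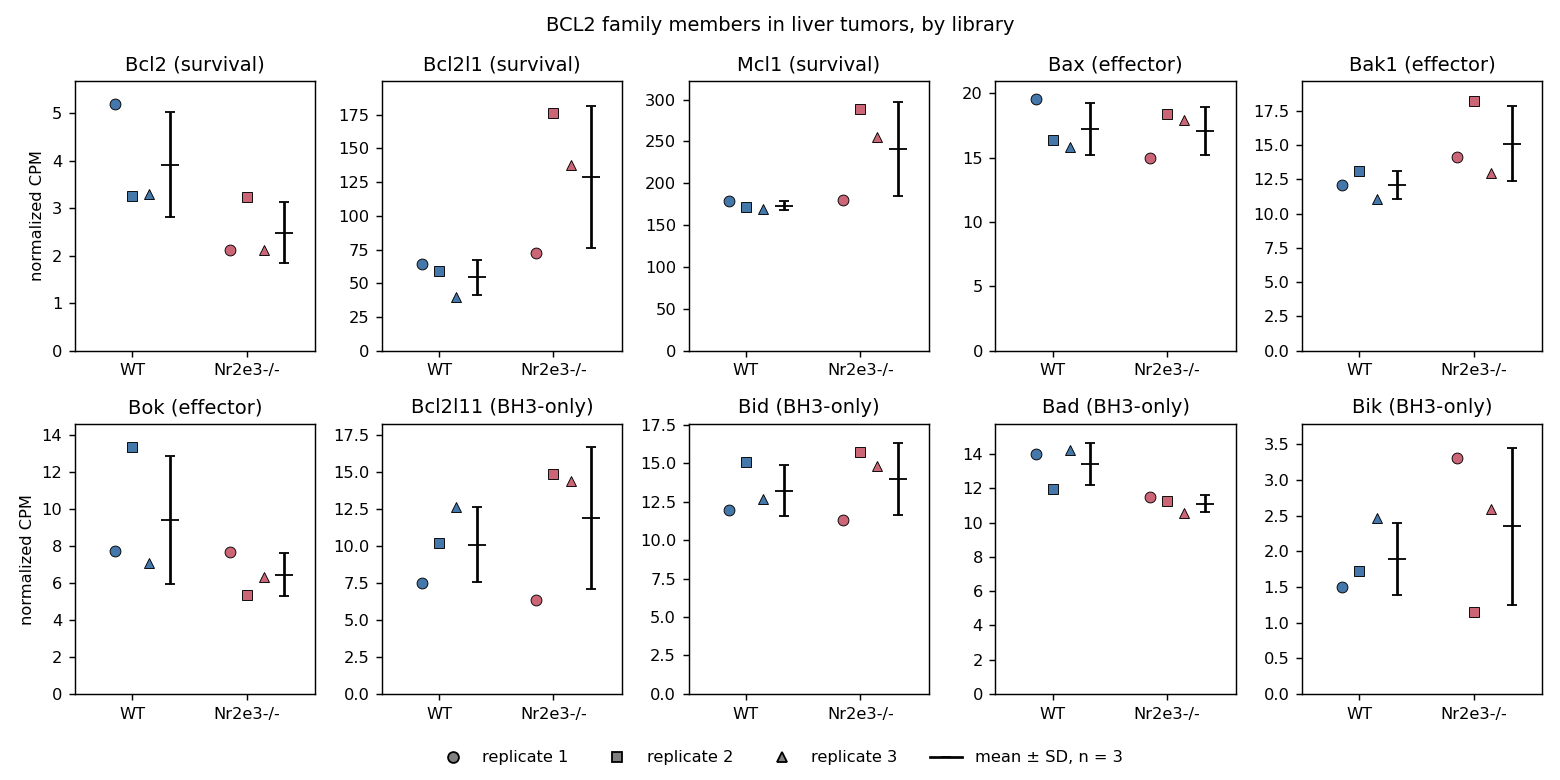
Normalized CPM of each of the 10 members (vertical axes, starting at 0) in 3 WT and 3 Nr2e3-/- liver tumors, 1 point per library, with the mean and SD of each group. Bcl2l1 and Mcl1 are highest in Nr2e3-/- replicates 2 and 3, while replicate 1 lies close to the WT libraries for both, and Bax overlaps between the groups.

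Bcl2l1 lies on chromosome 2 of GRCm38 (152780668 to 152831728, minus strand) and encodes BCL-XL, with a shorter death-promoting splice form that gene counts do not separate. It was measured at 64.3, 59.4 and 39.7 CPM in WT tumors and, given like all values here in the order of the replicate numbers, at 72.6, 176.5 and 138 CPM in Nr2e3-/- tumors. All 3 Nr2e3-/- tumors were above all WT tumors, replicate 1 by a small margin and the others by far more. This is a log2 fold change of 1.25 (SE 0.33, 95% interval 0.47 to 2.03, unadjusted p = 0.00677, adjusted p = 0.127 from edgeR). The adjusted p was 0.00554 with DESeq2 and 0.0217 with limma-voom. Without Nr2e3-/- replicate 1 the log2 fold change was 1.54 (95% interval 1.011 to 2.07, edgeR adjusted p = 0.00744). Leaving out any other library gave 0.95 to 1.38, with an unadjusted p of 0.0122 to 0.0254 and an adjusted p of 0.202 to 0.371.

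Mcl1, on chromosome 3 (95658788 to 95663176, plus strand), encodes a short-lived survival protein that binds BAK1 and BIM. It stood at 179.1, 171 and 169 CPM in WT and at 179.4, 289 and 255 CPM in Nr2e3-/- tumors. The WT libraries lay close together, Nr2e3-/- replicate 1 was level with the highest of them, and replicates 2 and 3 were well above. Its log2 fold change was 0.48 (SE 0.18, 95% interval 0.06 to 0.90, unadjusted p = 0.0301, adjusted p = 0.190 from edgeR). The adjusted p was 0.113 with DESeq2 and 0.0316 with limma-voom. Without Nr2e3-/- replicate 1 it was 0.0103 in edgeR, at a log2 fold change of 0.66 (95% interval 0.41 to 0.92). Leaving out any other library kept the sign, but the unadjusted p was then 0.0597 to 0.0860.

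Bcl2, on chromosome 1 (106538178 to 106714274, minus strand), gave the family its name and was first found at a lymphoma translocation. Its exons overlap those of D630008O14Rik on the opposite strand, and no strand setting is given, so reads of both genes could not be told apart. It was measured at 5.18, 3.25 and 3.30 CPM in WT and at 2.12, 3.23 and 2.11 CPM in Nr2e3-/- tumors. The groups did not overlap, but WT replicate 2 and Nr2e3-/- replicate 2 were practically level. The difference was -0.64 on the log2 scale (SE 0.29, 95% interval -1.31 to 0.04, unadjusted p = 0.0606, adjusted p = 0.252 from edgeR) and -0.53 without Nr2e3-/- replicate 1. Without WT replicate 1, its highest library, it was -0.38. In the lymphocyte list, where Bcl2 is a known survival gene, the 5 markers summed to 1.997 to 3.79 CPM in WT and 1.03 to 2.15 CPM in Nr2e3-/- tumors. The B cell markers Cd79a and Ms4a1 were lower without overlap. Their part in the Bcl2 values was not tested.

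Stretches of 250 bases before the RefSeq start sites (GRCm38.p6) are shown for the survival members, which differed in direction, and for Bax, against which they are compared. They are written 5′ to 3′ on each gene's strand, and capitals mark matches on either strand to a GC box (GGGCGG, bound by Sp1) or an NF-kB motif (GGG, any pair of bases, TTTCC).
Bcl2l1, chr2:152831729-152831978, minus strand: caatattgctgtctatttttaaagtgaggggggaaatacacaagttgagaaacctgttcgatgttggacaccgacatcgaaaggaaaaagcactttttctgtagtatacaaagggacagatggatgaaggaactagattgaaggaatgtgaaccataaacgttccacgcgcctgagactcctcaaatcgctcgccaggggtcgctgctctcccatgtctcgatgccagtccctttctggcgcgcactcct
Mcl1, chr3:95658471-95658720, plus strand: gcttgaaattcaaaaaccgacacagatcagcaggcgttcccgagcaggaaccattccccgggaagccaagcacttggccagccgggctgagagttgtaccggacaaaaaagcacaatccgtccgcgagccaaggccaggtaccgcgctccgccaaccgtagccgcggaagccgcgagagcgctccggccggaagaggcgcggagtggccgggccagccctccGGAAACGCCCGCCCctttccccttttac
Bcl2, chr1:106714291-106714540, minus strand: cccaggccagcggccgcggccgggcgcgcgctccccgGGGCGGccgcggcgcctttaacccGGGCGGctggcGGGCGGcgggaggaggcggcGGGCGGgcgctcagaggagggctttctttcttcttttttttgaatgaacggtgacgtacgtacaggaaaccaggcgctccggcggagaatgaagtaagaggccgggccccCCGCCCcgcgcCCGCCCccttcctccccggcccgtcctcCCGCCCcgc
Bax, chr7:45466899-45467148, minus strand: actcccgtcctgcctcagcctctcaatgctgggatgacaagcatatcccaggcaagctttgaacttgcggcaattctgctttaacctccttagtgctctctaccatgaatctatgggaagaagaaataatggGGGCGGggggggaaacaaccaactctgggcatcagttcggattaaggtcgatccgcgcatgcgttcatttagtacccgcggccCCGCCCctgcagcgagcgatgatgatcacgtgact
The Bcl2l1 stretch at its most distal start site held neither motif. That of Mcl1 held an NF-kB match whose last bases overlap its GC box, and that of Bcl2 held 7 GC boxes and that of Bax 2. RefSeq gave 13 such windows for 9 members, and Bik had none. The GC box was found in 8 of 13 member windows, against 32.7% of all 32851 windows of this length. The NF-kB motif was found in 2 of 13, that of Mcl1 and another Bcl2l1 start site, against 1.41% of all windows. The STAT motif TTCNNNGAA and the TCF/LEF motif CTTTGAT were in 0 of 13, against 7.02% and 3.21% of all windows. These are matches of letters only.

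Bax, on chromosome 7 (45461697 to 45466898, minus strand), encodes the pore-forming effector that moves from the cytosol to mitochondria and is a known p53 target. Its exons overlap those of the annotated gene Gm45808 on the same strand, so their reads could not be separated. It was measured at 19.6, 16.4 and 15.9 CPM in WT and at 14.96, 18.4 and 17.95 CPM in Nr2e3-/- tumors. The groups overlapped, with means of 17.3 ± 2.0 and 17.1 ± 1.86 CPM (SD, n = 3 each). Its log2 fold change was -0.01 (SE 0.14, adjusted p = 0.969 from edgeR), and its 95% interval of -0.34 to 0.32 covers differences in either direction. Trp53 itself was at 17.4, 15.7 and 15.4 CPM in WT and at 18.5, 26.7 and 28.6 CPM in Nr2e3-/- tumors (log2 fold change 0.61). Its adjusted p was 0.136 in edgeR, 0.0442 in DESeq2, 0.0189 in limma-voom and 0.00655 in edgeR without Nr2e3-/- replicate 1. Trp53, of which Bax is a known target, was named after its values were seen.

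Bak1, on chromosome 17 (27019810 to 27029009, minus strand), encodes the effector that resides in the mitochondrial membrane. Its exons overlap those of Ggnbp1 on the other strand. It was at 12.1, 13.1 and 11.1 CPM in WT and at 14.1, 18.2 and 13.0 CPM in Nr2e3-/- tumors. Replicate 3 of the Nr2e3-/- group lay within the WT range, and the log2 fold change was 0.32 (SE 0.16, 95% interval -0.05 to 0.70, adjusted p = 0.285 from edgeR), or 0.17 without Nr2e3-/- replicate 2. Bok, on chromosome 1 (93685660 to 93695764, plus strand), encodes an effector-like protein known to be held low by degradation. It was at 7.76, 13.4 and 7.07 CPM in WT and at 7.68, 5.35 and 6.33 CPM in Nr2e3-/- tumors. WT replicate 2 was far above all other libraries, and the log2 fold change of -0.55 (SE 0.28, adjusted p = 0.293 from edgeR) was -0.21 without it. None of the 3 effectors had an unadjusted p under 0.05 in edgeR's test of all 6 libraries, in DESeq2 or in limma-voom, and 0 passed adjustment. In that edgeR test, 21.5% of all genes had an unadjusted p under 0.05.

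Bcl2l11, on chromosome 2 (128126038 to 128162547, plus strand), encodes BIM, a BH3-only protein that binds all survival members. It was at 7.49, 10.2 and 12.6 CPM in WT and at 6.36, 14.9 and 14.4 CPM in Nr2e3-/- tumors. Nr2e3-/- replicate 1 was the lowest of all libraries and the other two were the highest. This gave a log2 fold change of 0.24 (SE 0.34, 95% interval -0.56 to 1.04, adjusted p = 0.696 from edgeR), and without Nr2e3-/- replicate 1 it was 0.54 (adjusted p = 0.116 from edgeR). It was 0.049 without Nr2e3-/- replicate 2, 0.088 without Nr2e3-/- replicate 3 and 0.068 without WT replicate 1.

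Bid, on chromosome 6 (120891930 to 120916853, minus strand), is cut by caspase-8 and so carries death receptor signals to mitochondria, a route hepatocytes are known to use. It was at 11.9, 15.1 and 12.7 CPM in WT and at 11.3, 15.7 and 14.8 CPM in Nr2e3-/- tumors. The groups overlapped, with a log2 fold change of 0.08 (SE 0.17, 95% interval -0.31 to 0.47, adjusted p = 0.796 from edgeR).

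Bad, on chromosome 19 (6941861 to 6951899, plus strand), encodes a BH3-only protein that is switched off by phosphorylation downstream of growth factors. Its exons overlap those of Gpr137 on the other strand. It was at 14.0, 11.98 and 14.2 CPM in WT and at 11.5, 11.3 and 10.6 CPM in Nr2e3-/- tumors. All 3 Nr2e3-/- tumors were below all WT tumors, replicate 1 included, and the Nr2e3-/- group was the tighter (SD 0.503 against 1.24 CPM). This is a log2 fold change of -0.27 (SE 0.13, 95% interval -0.57 to 0.03, unadjusted p = 0.0680, adjusted p = 0.263 from edgeR). Bik, on chromosome 15 (83526862 to 83544634, plus strand), encodes a BH3-only protein of the endoplasmic reticulum and had the fewest reads of the 10, 31 to 71 counts per library. It was at 1.498, 1.73 and 2.46 CPM in WT and at 3.31, 1.15 and 2.60 CPM in Nr2e3-/- tumors. The Nr2e3-/- libraries held both the highest and the lowest value, and the log2 fold change of 0.28 (SE 0.41, adjusted p = 0.704 from edgeR) turned to -0.038 without replicate 1.

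**Figure D2:**
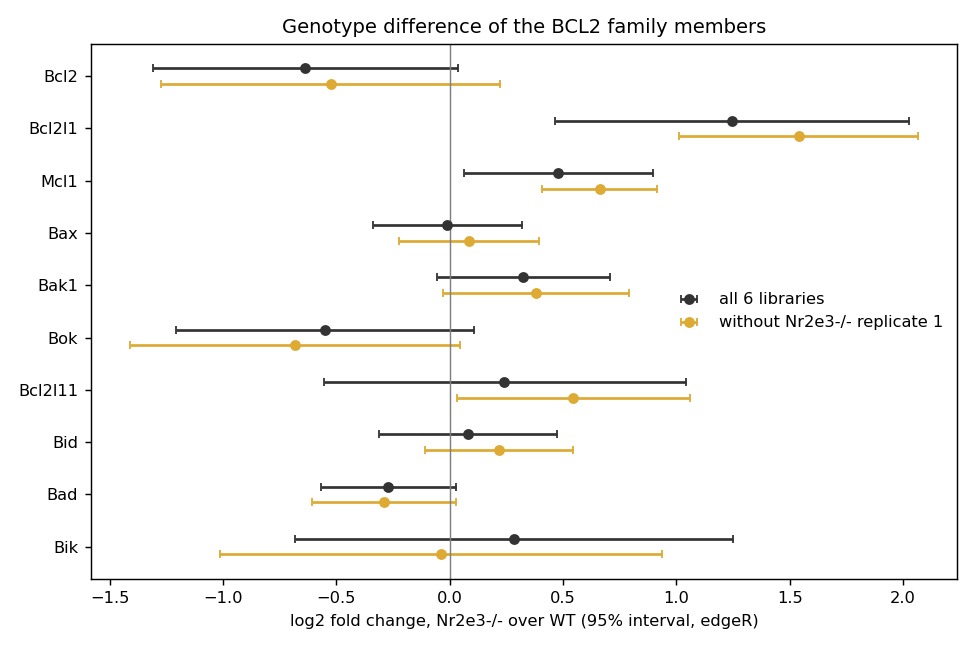
Log2 fold change of each member, Nr2e3-/- over WT (horizontal axis), with its 95% interval from edgeR, for all 6 libraries and without Nr2e3-/- replicate 1. The intervals of Bcl2l1 (0.47 to 2.03) and Mcl1 (0.06 to 0.90) lie above 0 in the test of all 6 libraries, and those of the other 8 members include 0.

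The groups did not overlap for 4 of 10 members, Bcl2l1 and Mcl1 on the higher side and Bcl2 and Bad on the lower side, where 26.8% of all genes tested did not overlap. By direction, 13.9% of genes were higher and 12.9% lower without overlap. For Mcl1, Bcl2 and Bad this rested on margins of under 1 CPM between the nearest libraries. The count of members without overlap was 5 with RLE scaling, 3 with upper quartile scaling and 4 to 6 leaving out a library. Shares over all genes were not computed for these settings. Smaller groups separate more readily, so the counts with a library left out cannot be read against the 26.8%. Of the 3 survival members 2 had an unadjusted p under 0.05, and of the 7 effectors and BH3-only members 0 had one with edgeR, DESeq2 or limma-voom on all 6 libraries. Of all genes tested, 21.5% had one in edgeR. Among fits leaving out a library, Mcl1 kept it only without Nr2e3-/- replicate 1. Bcl2, Bcl2l11, Bak1 and Bok each had one in a single such fit. The difference between the classes was not tested.

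Levels of different genes were compared per kilobase of exon, since longer transcripts collect more reads. Mcl1 was the most abundant member in every library, at 50.7 ± 1.53 CPM per kilobase in WT and 70.6 ± 16.4 in Nr2e3-/- tumors (SD, n = 3 each). In WT it was followed by Bax at 19.9 ± 2.31 and Bcl2l1 at 14.0 ± 3.35 CPM per kilobase, and their ranges of 18.3 to 22.5 and 10.2 to 16.5 did not overlap. In Nr2e3-/- tumors Bcl2l1 came second, at 18.7, 45.4 and 35.5 CPM per kilobase against 17.3, 21.2 and 20.7 for Bax. Bcl2l1 was thus above Bax within each Nr2e3-/- library and below it within each WT library. This order depends on the length used, as given under the dependence on the processing. Bok, Bid, Bad and Bak1 formed a middle group with WT means of 5.06 to 6.36 CPM per kilobase, whose ranges overlapped. Bcl2l11 and Bik followed at 1.47 and 1.29 in WT, also overlapping, and Bcl2 was lowest at 0.427 ± 0.121 in WT and 0.272 ± 0.0704 CPM per kilobase in Nr2e3-/- tumors. The order of Bcl2 below all other members held in every library.

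Expressed as shares of the summed CPM per kilobase of the 10 members, the survival members made up 60.0%, 57.8% and 58.3% in WT and 63.2%, 73.4% and 70.8% in Nr2e3-/- tumors. All Nr2e3-/- libraries were above the WT range, replicate 1 least. Bcl2l1 accounted for most of this, at 12.6% ± 2.32 in WT and 21.6% ± 4.62 in Nr2e3-/- tumors, while the share of Mcl1 was 45.8% ± 2.06 and 47.3% ± 0.754 (SD, n = 3 each). Effectors made up 28.2% ± 1.26 in WT and 21.0% ± 3.65 in Nr2e3-/- tumors, and BH3-only members 13.1% ± 1.61 and 9.88% ± 1.66. Since shares sum to a whole, a smaller share of the effectors does not mean fewer effector reads.

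**Figure D3:**
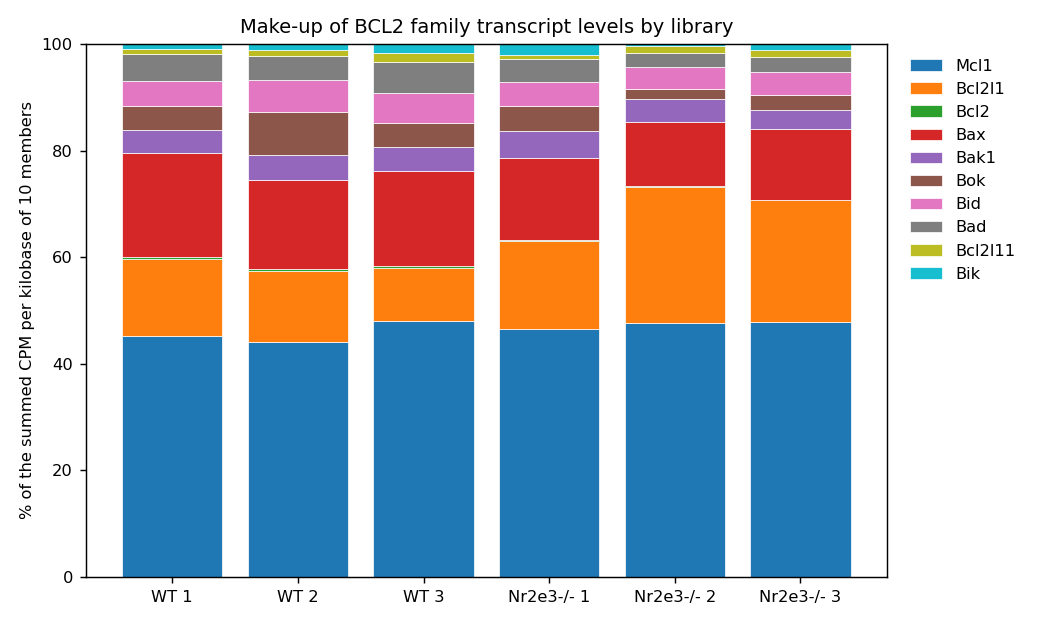
Make-up of the BCL2 family transcripts in each library, as the share (%) of the summed CPM per kilobase of the 10 members (vertical axis), with 1 bar per tumor. Mcl1 takes 44.1% to 48.1% of every bar, and Bcl2l1 takes 9.91% to 14.3% in WT and 16.6%, 25.6% and 22.8% in Nr2e3-/- replicates 1, 2 and 3.

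Survival and death members were then compared within each library, where the ratio of 2 genes does not depend on how libraries are scaled. The log2 ratio of the 3 summed survival members to the 7 summed death members was 0.59, 0.45 and 0.49 in WT and 0.78, 1.46 and 1.28 in Nr2e3-/- tumors. Every Nr2e3-/- library was above every WT library, and the means of 0.51 ± 0.07 and 1.18 ± 0.35 (SD, n = 3 each) differed by 0.67. Between WT and Nr2e3-/- replicates 2 and 3 alone, the difference was 0.86. No test was made of ratios, and 3 against 3 libraries cannot give an exact two-sided permutation p under 0.1.

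The single pairs differed in direction. The log2 ratio of Bcl2l1 to Bax was -0.45, -0.31 and -0.84 in WT and 0.11, 1.10 and 0.78 in Nr2e3-/- tumors, a difference of 1.19. That of Mcl1 to Bax was 1.22, 1.41 and 1.44 in WT and 1.61, 1.997 and 1.85 in Nr2e3-/- tumors, a difference of 0.46. Neither pair overlapped between genotypes. The log2 ratio of Bcl2 to Bax went the other way, at -5.32, -5.74 and -5.67 in WT and -6.22, -5.91 and -6.49 in Nr2e3-/- tumors, a difference of -0.63 without overlap. Against Bak1 in place of Bax, the groups overlapped for both Bcl2l1 (difference 0.87) and Mcl1 (difference 0.14). Within the survival class, the log2 ratio of Bcl2l1 to Bcl2 differed by 1.83, from 5.04 ± 0.34 in WT to 6.87 ± 0.48 in Nr2e3-/- tumors (SD, n = 3 each), without overlap.

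**Figure D4:**
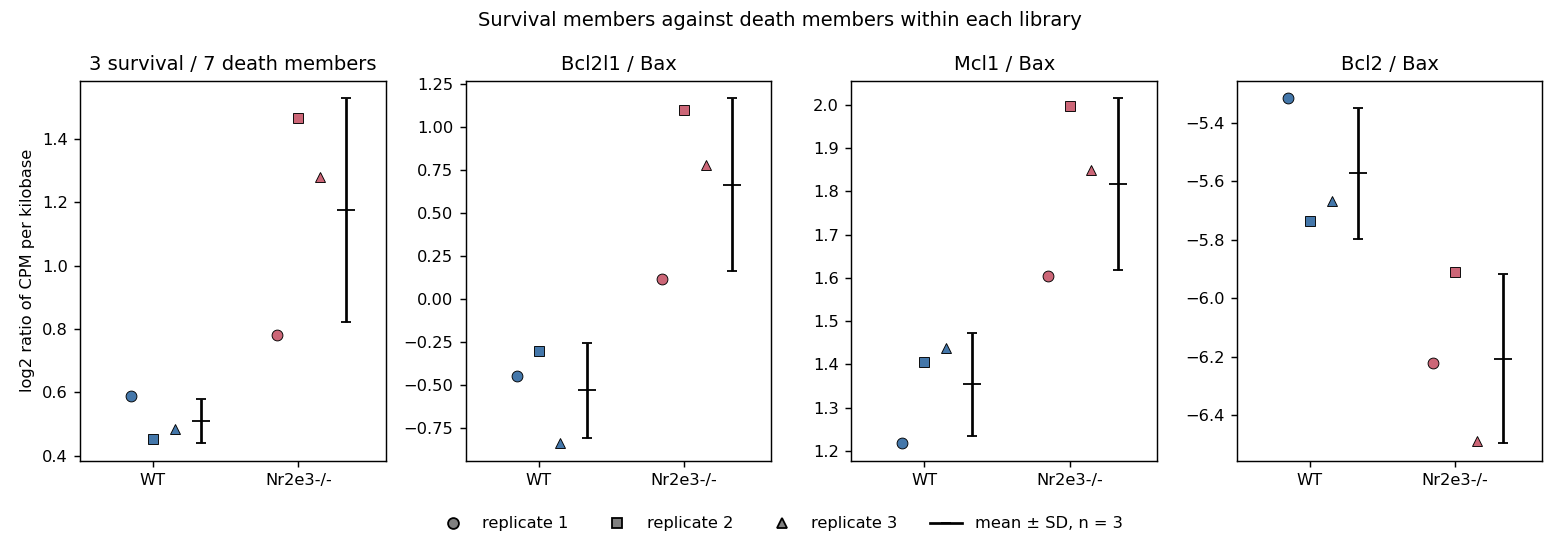
Log2 ratios of CPM per kilobase within each library (vertical axes, not starting at 0) for the summed survival over death members and for Bcl2l1, Mcl1 and Bcl2 over Bax, with 1 point per tumor and the mean and SD per group. The summed ratio is 0.45 to 0.59 in WT and 0.78 to 1.46 in Nr2e3-/- tumors, and the ratio of Bcl2 to Bax is the one that is lower in Nr2e3-/- tumors.

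The expression pattern nearest to that of Bcl2l1, the member with the smallest p, was sought among the other 13571 genes tested, as the root mean square difference of centred log2 CPM over the 6 libraries. The nearest genes were Sptlc2, a subunit of the enzyme that starts sphingolipid synthesis (0.0859), Jam2, a junctional adhesion molecule (0.0949), and Gm7694 (0.106). Sptlc2 was at 40.3, 36.1 and 25.1 CPM in WT and at 39.0, 99.0 and 81.4 CPM in Nr2e3-/- tumors. The edgeR log2 fold changes of these genes were 1.11, 1.14 and 1.36, with adjusted p of 0.147, 0.124 and 0.123. Among the members, Mcl1 was nearest to Bcl2l1, at rank 658 (0.450), followed by Bak1 at rank 1941, and Bok was the farthest at rank 11349.

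Outside the 10 members, 15 further genes of the family were listed, of which 10 passed the filter. By edgeR, 1 of these 10 had an unadjusted p under 0.05, against 21.5% of all genes, and 0 passed adjustment, with a median log2 fold change of -0.11. That gene was Bcl2l2, which encodes the survival protein BCL-W and whose exons overlap those of Gm20521 on the same strand. It was at 29.6, 29.2 and 30.0 CPM in WT and at 27.5, 19.3 and 22.2 CPM in Nr2e3-/- tumors, all below WT. The log2 fold change was -0.37 (SE 0.15, unadjusted p = 0.0377, adjusted p = 0.207 from edgeR) and -0.51 without Nr2e3-/- replicate 1 (adjusted p = 0.0193 from edgeR). Leaving out any other library gave an unadjusted p of 0.0808 to 0.0981. Of these 4 survival genes, Bcl2l1 and Mcl1 were thus above WT in all 3 Nr2e3-/- tumors, and Bcl2 and Bcl2l2 below it. The nearest libraries were practically level for Mcl1 (179.4 CPM in Nr2e3-/-, 179.1 CPM in WT) and Bcl2 (3.23 CPM in Nr2e3-/-, 3.25 CPM in WT).

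Bmf, a BH3-only gene linked to cell detachment, was at 4.57, 6.97 and 14.1 CPM in WT and at 6.89, 2.30 and 1.51 CPM in Nr2e3-/- tumors. Nr2e3-/- replicate 1 lay within the WT range and the other two below it. The log2 fold change was -1.29 (SE 0.62, adjusted p = 0.274 from edgeR), and -2.13 without replicate 1 (adjusted p = 0.0336 from edgeR). Without WT replicate 3, its highest library, it was -0.72. Bbc3, which encodes PUMA, a p53 target, was at 2.23, 2.44 and 2.25 CPM in WT and at 5.16, 1.71 and 1.73 CPM in Nr2e3-/- tumors. Nr2e3-/- replicate 1 was above and the other two below every WT library, so its log2 fold change of 0.29 became -0.41 without replicate 1. The other genes tested had log2 fold changes of -0.18 (Pmaip1, the BH3-only gene NOXA), 0.12 (Bcl2a1b), -0.03 (Bcl2l12), 0.05 (Bcl2l13), -0.68 (Bcl2l14), -0.18 (Bnip3) and -0.04 (Bnip3l), all with an unadjusted p above 0.05 in edgeR. Bcl2l10, Bcl2a1a, Bcl2a1d, Hrk and Bcl2l15 had 0 to 6 counts per library and were not tested. The Bcl2a1 genes are near-identical copies, so the split of their reads is uncertain.

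Downstream of the members, all 19 genes of the mitochondrial death machinery were tested. With an unadjusted p under 0.05 in edgeR, 2 were higher and 1 lower, against 21.5% of all genes either way. In edgeR 0 of 19 passed adjustment, and the median log2 fold change was -0.00. Without Nr2e3-/- replicate 1, edgeR called 2 of 19 (Casp6 and Birc2), where 21.8% of all genes were called. The lower gene was Casp6, an executioner caspase, at 23.9, 30.6 and 29.8 CPM in WT and 18.1, 10.8 and 14.0 CPM in Nr2e3-/- tumors. Casp6 had a log2 fold change of -0.98 (SE 0.20, adjusted p = 0.0984 from edgeR), with an adjusted p of 0.00207 in DESeq2 and of 0.00743 in edgeR without Nr2e3-/- replicate 1. The higher genes were the inhibitor of apoptosis genes Birc2 (log2 fold change 0.40, adjusted p = 0.157) and Xiap (0.32, adjusted p = 0.176, both edgeR), whose groups did not overlap. Diablo was also higher without overlap (log2 fold change 0.23, unadjusted p = 0.0825 from edgeR). In this list 3 genes were higher and 1 lower without overlap, against 26.8% of all genes either way. Casp9, the caspase activated by the apoptosome, differed by -0.21 on the log2 scale (edgeR adjusted p = 0.534), and Cycs, which encodes the cytochrome c that BAX and BAK pores release, differed by 0.40 (adjusted p = 0.294 from edgeR). Diablo, Casp9 and Cycs were named after their values were seen.

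Of the 11 death receptor genes, 10 were tested, and 3 were higher and 0 lower with an unadjusted p under 0.05 in edgeR (21.5% of all genes passed, 11.8% as higher), where 0 passed adjustment. The median log2 fold change was -0.07, with 5 genes positive and 5 negative, and other fits were less one-sided, with 4 higher and 3 lower in limma-voom and 4 higher and 2 lower in edgeR without Nr2e3-/- replicate 1. Tnfrsf1a, the receptor for TNF, was at 103, 96.2 and 85.6 CPM in WT and at 109, 233 and 237 CPM in Nr2e3-/- tumors (log2 fold change 1.02, SE 0.29, adjusted p = 0.132 from edgeR and 0.0122 from DESeq2). Fas, the receptor for FAS ligand, was at 10.6, 15.1 and 10.8 CPM in WT and at 16.5, 20.5 and 24.6 CPM in Nr2e3-/- tumors. Fas had a log2 fold change of 0.76 (SE 0.20, adjusted p = 0.127 from edgeR and 0.0216 from DESeq2). Ripk1, a kinase below TNF receptor 1, had 0.51 (adjusted p = 0.181 from edgeR). The groups of all 3 did not overlap, and replicate 1 was the nearest of its group to WT for each. Without it, edgeR called 5 of the list (21.8% of genes called). Of these, Tnfrsf1a (adjusted p = 0.00193), Fas (0.0198), Ripk1 (0.00797) and Casp8 (0.0216) were higher. Tnfsf10 (0.00754) was lower, at a log2 fold change of -1.37. Neutrophil and macrophage markers, given above, were highest in Nr2e3-/- replicate 2, and their part in these values was not tested.

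Of 16 known regulators of the members, 15 were tested, 6 were higher and 0 lower with an unadjusted p under 0.05 in edgeR, against 11.8% of all genes as higher and 21.5% either way. None passed adjustment in edgeR (0 of 15), and the median log2 fold change was 0.18. These 6 were Trp53, Stat3, Nfkb1, Rela, Pim1 and Pim3. DESeq2 called 5 of the list (8% of all genes), limma-voom 7 (17.4%) and edgeR without Nr2e3-/- replicate 1 also 7 (21.8%). Stat3, a transcription factor known to activate Bcl2l1 and Mcl1, was at 184, 156 and 160 CPM in WT and at 213, 367 and 328 CPM in Nr2e3-/- tumors (log2 fold change 0.86, SE 0.21, adjusted p = 0.111 from edgeR and 0.00460 from DESeq2). Pim1 and Pim3 encode kinases known to phosphorylate BAD. Pim3 was at 38.8, 37.5 and 51.4 CPM in WT and at 61.6, 161 and 135 CPM in Nr2e3-/- tumors (log2 fold change 1.49, SE 0.34, adjusted p = 0.103 from edgeR and 0.000702 from DESeq2). Pim1 was at 6.14, 5.41 and 7.11 CPM in WT and at 9.73, 13.9 and 20.2 CPM in Nr2e3-/- tumors (log2 fold change 1.24, SE 0.27, adjusted p = 0.100 from edgeR). For all 3 the groups did not overlap, and Nr2e3-/- replicate 1 was the lowest of its group. Without it, the edgeR adjusted p was 0.00422 for Stat3, 0.00235 for Pim3 and 0.00692 for Pim1.

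**Figure D5:**
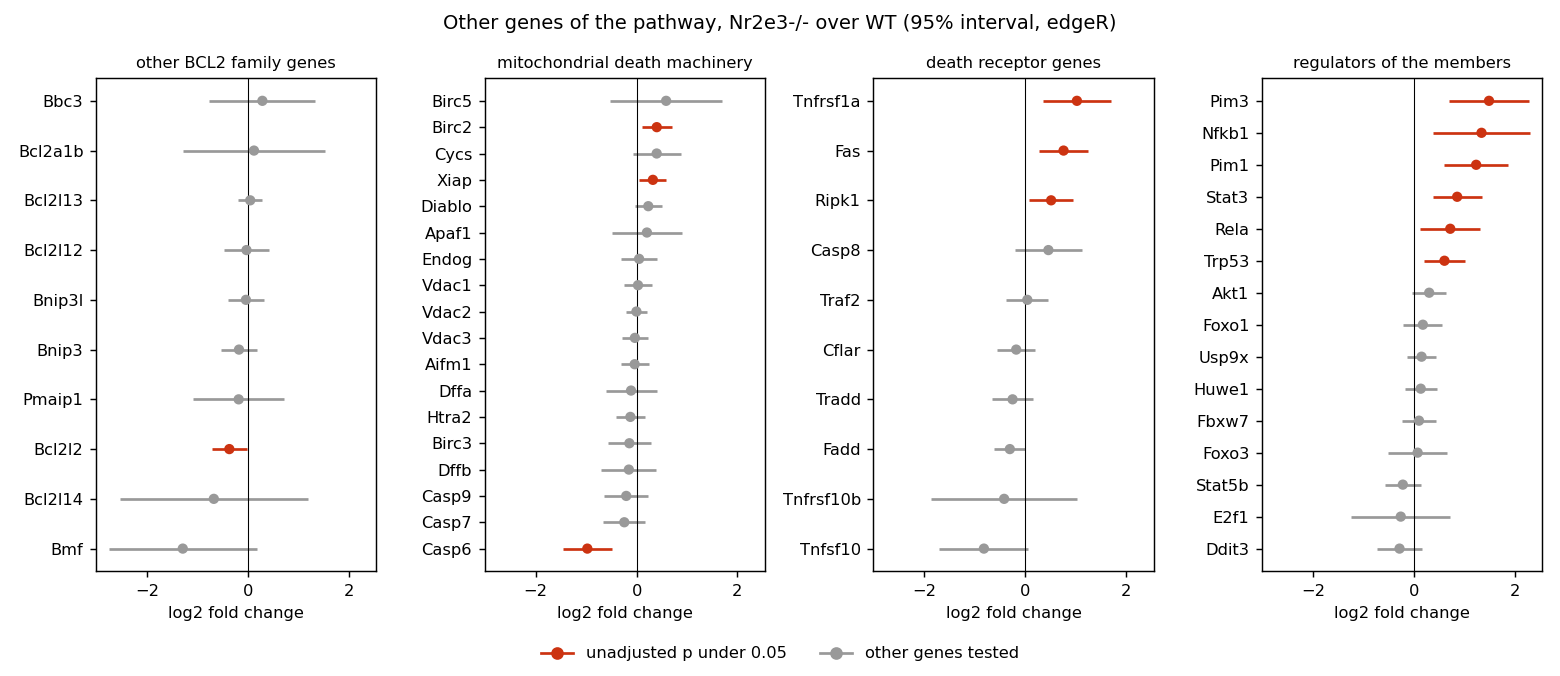
Log2 fold change, Nr2e3-/- over WT (horizontal axes), with 95% interval from edgeR, of the tested genes of 4 lists around the members (1 mitochondrial death gene is not drawn), with genes at an unadjusted p under 0.05 in red. In red are 1 of 10 other family genes, 3 of 19 mitochondrial death genes, 3 of 10 death receptor genes and 6 of 15 regulators.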

How the data were processed

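RNA was extracted from liver tumors of 3 WT and 3 Nr2e3-/- mice, and single-end TruSeq libraries were sequenced. Per the study's methods and the submitters' processing notes, the authors aligned reads to mm10 (GRCm38) with TopHat and counted them per gene with FeatureCounts. The deposited table used here holds raw counts per gene symbol, with no normalization. The annotation and strand setting are not given in the sources used here. Single values of 2 listed genes are not reported here. A scaled version of the table and a table of the authors' own comparison (fold changes and p-values) were also deposited and were not used. The dose of DEN, the age and the time of collection come from the study's methods, since the labels do not hold them.

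Low genes were removed by filterByExpr (a CPM matching 10 counts at the median depth in at least 3 libraries, and 15 counts in total). TMM factors scaled the libraries, and edgeR 4.0.16 in R 4.3.3 gave two-sided quasi-likelihood F tests with Benjamini-Hochberg adjustment over all 13572 genes tested. P-values set the genotype difference against the spread between tumors of the same genotype, over these 6 tumors. DESeq2 1.42.0 and limma-voom (limma 3.58.1, sample quality weights) were alternatives, as were RLE and upper quartile scaling, other filters, a replicate block and leaving out each library. Scripts were tested on simulated counts. Lengths were the union of exons in GENCODE vM21 (GRCm38), and promoter windows came from RefSeq (GRCm38.p6). Python 3.11.15 with pandas 2.3.3 was used for tables, and matplotlib 3.10.9 for figures. Depth was 15376261 to 28690279 counts per library.

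The members and gene lists were chosen with earlier results of these data known. Named genes were all members, all other family genes with at least 1 count, the 3 genes of smallest p in each further list, the 3 genes nearest in pattern to the member of smallest p, and markers that moved with a result. Further genes of these lists (Diablo, Casp9, Cycs, Casp8, Tnfsf10, Trp53, Nfkb1, Rela, Ripk3, Mlkl and Gsdmd) were named after their values were seen.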

Additional observations from a re-analysis of the deposited data

How the results depend on the processing

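Calls, log2 fold changes and the survival to death ratio were recomputed under the alternatives, while marker sums, family shares, pattern ranks and motif counts were not. DESeq2 changes test, scaling and filter together, and limma-voom adds quality weights to another test. Across the table, 13 genes passed an adjusted p of 0.05 in edgeR, 8 with upper quartile scaling, 1096 with DESeq2, 2360 with limma-voom, 70 at 1 count or more in any library and 7 at 10 counts or more in every library. Leaving out a library gave 0 to 3022, the latter without Nr2e3-/- replicate 1. Members past the adjusted threshold were 0, with 1 in DESeq2, 2 in limma-voom and 0 to 2 leaving out a library. Members with an unadjusted p under 0.05 were 2, with 4 after upper quartile scaling (Bad and Bcl2 added) and 1 to 3 leaving out a library, where Bcl2l1 was kept in all 6 fits and Mcl1 only in that without Nr2e3-/- replicate 1. The others past it in single fits were Bcl2l11 (without Nr2e3-/- replicate 1), Bcl2 (without replicate 2), Bak1 (without replicate 3) and Bok (without WT replicate 3). Other family genes were 1, with 2 in DESeq2, 2 in limma-voom, 2 at 1 count or more and 0 to 2 leaving out a library. Mitochondrial death genes were 3, with 5 in limma-voom and 2 to 6 leaving out a library, and death receptor genes were 3, with 7 in limma-voom and 2 to 6. The number of all genes with an unadjusted p under 0.05 changed as well. It was 2916 of 13572 in edgeR, 4981 of 13572 in limma-voom, 3067 of 18815 in DESeq2 and 5220 of 13840 in edgeR without Nr2e3-/- replicate 1. With upper quartile scaling, 1102 genes were higher and 1782 lower at that threshold. Upper quartile scaling moved the median of all genes from 0.01 to -0.08 on the log2 scale and the share of higher calls at an unadjusted p under 0.05 from 54.8% to 38.2%. The difference in the survival to death log2 ratio, 0.67, was 1.30 with medians in place of sums and 0.52 to 0.86 leaving out a library. With the length of the longest transcript, chosen after seeing the data, it was 0.74, and the log2 ratio of Bcl2l1 to Bax in WT became 0.15, 0.29 and -0.24, so that Bcl2l1 was above Bax in 2 of 3 WT libraries. Signs turned only for small log2 fold changes, whose cause was not tested. Leaving out a library gave -0.072 to 0.090 for Bax, -0.012 to 0.22 for Bid, -0.038 to 0.63 for Bik, -0.75 to 0.53 for Bcl2a1b, -0.41 to 0.56 for Bbc3, -0.66 to 0.091 for Pmaip1, -0.13 to 0.058 for Bcl2l12 and -0.16 to 0.063 for Bnip3l. No sign turned for Bcl2l14, at -1.19 to -0.00082. Upper quartile scaling gave -0.0094 for Bid and -0.042 for Bcl2l13. DESeq2 gave 0.00051 for Bax, and limma-voom gave 0.035 for Bax, -0.24 for Bbc3 and 0.034 for Bnip3l.

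Deviations of same-numbered tumors from their group means correlated at -0.077, 0.22 and 0.023, and those of differently numbered tumors at -0.265 to 0.225. With so few tumors, this showed no sign of pairing by replicate number but cannot settle it. With the replicate block, 0 genes were called in edgeR, with 1217 higher and 1221 lower at an unadjusted p under 0.05. Bcl2l1 had an adjusted p of 0.196, Bcl2a1b turned to -0.055 on the log2 scale, and no call of a member changed.

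Depth limits the low members most: Bik rested on 31 to 71 counts and Bcl2 on 32 to 135 counts per library. Gene counts do not separate splice forms, RNA levels do not give protein levels, and Nr2e3 had no reads with which to check the genotypes.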

Other observations

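Beyond apoptosis, 12 genes of necroptosis, pyroptosis and ferroptosis were examined as a list chosen after seeing the data. All 12 were tested, and 1 was higher and 1 lower with an unadjusted p under 0.05 in edgeR, against 21.5% of all genes either way. In edgeR 0 passed adjustment. DESeq2 called 1, with 8% of all genes called, and limma-voom called 1, with 17.4% of all genes called. The median log2 fold change was 0.08. The higher gene was Acsl4, an acyl-CoA synthetase that makes phospholipids prone to peroxidation and so favours ferroptosis. It was at 221, 155 and 175 CPM in WT and at 288.5, 462 and 460 CPM in Nr2e3-/- tumors. All 3 Nr2e3-/- tumors, replicate 1 included, were above all WT tumors (log2 fold change 1.13, SE 0.22, adjusted p = 0.0930 from edgeR, 0.000204 from DESeq2 and 0.00472 from edgeR without replicate 1). Gpx4, the peroxidase that restrains ferroptosis, was at 37.9, 41.6 and 36.5 CPM in WT and at 30.7, 33.9 and 35.0 CPM in Nr2e3-/- tumors, lower without overlap (log2 fold change -0.22, adjusted p = 0.274 from edgeR). The lower gene was Casp12, an inflammatory caspase of the endoplasmic reticulum, at 7.56 ± 3.39 CPM in WT and 3.81 ± 0.945 CPM in Nr2e3-/- tumors (SD, n = 3 each). Its log2 fold change was -0.98 (SE 0.35, adjusted p = 0.180 from edgeR), and -1.23 to -0.56 leaving out a library. The necroptosis genes Ripk3 and Mlkl had log2 fold changes of 0.01 and 0.28, and the pyroptosis pore gene Gsdmd had 0.04, each with overlapping groups.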
